A study of Mus musculus with 16 samples.

Results

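The oligodendrocyte lineage and myelin genes are 30 genes, chosen by name among the 36930 entries of the expression table made from mouse cortex at P7. They comprise 4 genes of oligodendrocyte precursors, 5 transcription factors of the lineage, 7 genes of premyelinating oligodendrocytes and 14 genes of myelin and of mature oligodendrocytes. All pups were C57BL6 mice aged 7 days, and all had spent 1 h per day in blue light between P1 and P5. Avil-ChR2 pups (n = 8, 5 female and 3 male by label) carried Cre under the promoter of advillin, a gene of sensory neurons, which removes a stop cassette in front of a channelrhodopsin-2/td-Tomato fusion in the Rosa26 locus. ChR2-flfl controls (n = 8, 4 female and 4 male) were Cre-negative litter mates with the floxed construct, so that the fusion stayed silent. Both groups received the light, and no group without light was analysed here. Effects of Cre, of ChR2 and of the light-evoked activity therefore cannot be told apart.

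Oligodendrocytes arise from dividing precursors that carry the PDGF receptor alpha. Precursors leave the cycle, pass through a premyelinating stage and then wrap axons with a membrane rich in galactolipids and a small set of abundant proteins. In the mouse cortex myelin forms mainly after the first postnatal week, so that precursors outnumber myelinating cells at P7. The transcription factors Olig1, Olig2, Sox10 and Nkx2-2 specify and drive the lineage, and Myrf switches on the myelin genes.

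The values are reads per gene, scaled by the authors to CPM (read counts relative to library size) with trimmed-mean factors. Libraries held 30549126 to 48711134 reads, with the lowest depth in ChR2-flfl replicate 3. Avil, the gene that drives Cre, was at 1.07 ± 0.199 CPM in ChR2-flfl (SD, n = 8) and at 39.7 ± 2.89 CPM in Avil-ChR2 (SD, n = 8), without overlap. Every pup thus matched its genotype label. Markers of cortical excitatory neurons summed to 1105 to 1238 CPM over the 16 pups, and markers of the choroid plexus to 1.45 to 3.27 CPM. Of the marker genes of other cell types, P2ry12, Kcnj13 and Alas2 had no value.

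Of the 30 genes, 28 passed the filter on low values, which asks for a log2 CPM above -5 in at least 12 of 16 pups. Opalin, a membrane protein of mature oligodendrocytes, had a value in 7 of 16 pups and at most 3 reads in a pup. Gpr17, a receptor that is a hallmark of premyelinating cells, had no value in any pup. Its entry lies inside the entry of Lims2 on the opposite strand. Entries that lie inside another entry had no value in 94.4% of 5870 cases, against 10.1% of 31060 entries that do not. The empty value of Gpr17 is thus shared by most nested entries and gives no level of the gene. Lims2, listed here among other precursor and premyelinating genes, was at 82.9 ± 11.8 CPM in ChR2-flfl and 87.1 ± 13.9 CPM in Avil-ChR2 (SD, n = 8 each). A further 5 members overlap other entries with values. They are Cnp with Dnajc7, Nkx2-2 with Nkx2-2os, Bmp4 with Gm15217, Lhfpl3 with A930003O13Rik, and Aspa with LOC105244608 and Spata22. The libraries were stranded, but the sources used here do not state whether counting used the strand. Reads in the shared stretches, including those of Lims2 and Gpr17, therefore cannot be assigned with certainty.

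Promoter sequences are shown for 3 genes whose levels followed Mbp from pup to pup (Enpp6, Mag and Mobp) and for Mog, a myelin gene whose level did not, as described with the correlations. Each is the 250 bases before the RefSeq start on GRCm38.p6, written along the gene's strand, and such windows were found for 23 of the 30 genes. Capitals mark matches on either strand to ACAAAG or ACAATG, which SOX factors such as Sox10 can bind, and to CTGGCAC or CTGGTAC, which Myrf can bind. The letters CAGCTG, an E-box of the kind that Olig factors can bind, were searched as well. These motifs do not overlap each other in the windows shown.
Enpp6, chr8:46986637-46986886, plus strand: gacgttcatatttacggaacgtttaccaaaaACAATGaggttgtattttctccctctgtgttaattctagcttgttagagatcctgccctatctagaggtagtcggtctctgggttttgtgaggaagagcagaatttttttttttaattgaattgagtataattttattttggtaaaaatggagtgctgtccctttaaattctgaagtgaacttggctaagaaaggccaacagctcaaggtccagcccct
Mag, chr7:30914923-30915172, minus strand: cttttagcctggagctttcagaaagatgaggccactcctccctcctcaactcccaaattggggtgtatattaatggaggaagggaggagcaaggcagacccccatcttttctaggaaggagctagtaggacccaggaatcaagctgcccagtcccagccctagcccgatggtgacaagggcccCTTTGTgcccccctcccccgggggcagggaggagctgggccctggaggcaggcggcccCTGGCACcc
Mobp, chr9:120149492-120149741, plus strand: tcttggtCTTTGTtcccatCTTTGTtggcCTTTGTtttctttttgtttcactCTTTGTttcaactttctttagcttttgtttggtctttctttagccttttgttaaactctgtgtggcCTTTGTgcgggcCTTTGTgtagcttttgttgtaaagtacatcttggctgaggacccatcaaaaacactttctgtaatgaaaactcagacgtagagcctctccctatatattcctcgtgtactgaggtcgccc
Mog, chr17:37023399-37023648, minus strand: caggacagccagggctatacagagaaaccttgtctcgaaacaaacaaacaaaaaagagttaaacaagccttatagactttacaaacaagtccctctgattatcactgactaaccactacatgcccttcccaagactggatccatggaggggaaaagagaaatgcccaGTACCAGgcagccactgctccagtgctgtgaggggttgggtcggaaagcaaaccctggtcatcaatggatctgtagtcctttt
The Mobp window held 6 matches to ACAAAG, the Mag window 1 match to ACAAAG and 1 to CTGGCAC, the Enpp6 window 1 match to ACAATG, and the Mog window 1 match to CTGGTAC. Over all 32851 promoter windows of the same length, ACAAAG was found in 16.5%, ACAATG in 10.7%, CAGCTG in 13%, CTGGCAC in 4.19% and CTGGTAC in 1.83%. Windows not shown were mixed. Olig2 (ACAATG) and Cnp (ACAAAG and CTGGCAC), which followed Mbp, held matches. Sox8, Nkx2-2, Ugt8a and Gjc3, which also followed Mbp, held 0, as did another Mag window at chr7:30914322-30914571. Tcf7l2 and Ermn, which did not follow Mbp, held matches to ACAATG. A match is a description of the letters and does not show that a factor binds there.

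Levels differed widely between the members. The lengths deposited with the values are genomic spans, and the sources used here do not state whether reads in introns were counted. Such reads would raise the values per kb of genes with long introns. Ptprz1 spans 177459 bp for a transcript of 8068 bp, Itpr2 393925 bp for 11679 bp and Olig1 2171 bp for 2162 bp. The order of genes by CPM per kb, given here and below, is therefore uncertain. Per kilobase of the longest annotated transcript, the highest mean level over the 16 pups was that of Ptprz1, a receptor phosphatase of precursors and astrocytes, at 85.6 CPM per kb. Cnp, an enzyme of the myelin cytoplasm that is made early in the lineage, followed at 37.5 CPM per kb, and the transcription factor Olig1 was at 28.6 CPM per kb. Pdgfra, the receptor that keeps precursors dividing, was at 17.8 CPM per kb, and Mbp, the protein that compacts the myelin membrane, was at 15.4 CPM per kb. The Mbp entry also spans the golli transcripts of the locus, which are not confined to oligodendrocytes, and the values do not separate them.

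Most genes of later stages were far lower. Mag, an adhesion protein of the inner myelin layer, was at 0.993 CPM per kb, Fa2h, which hydroxylates the fatty acids of myelin lipids, at 0.455 CPM per kb and Mobp, a cytoplasmic myelin protein, at 0.382 CPM per kb. Ermn, a cytoskeletal protein of late oligodendrocytes, and Aspa, which splits N-acetylaspartate, were the lowest of the tested genes, at 0.343 and 0.336 CPM per kb. The lowest of the premyelinating genes was Myrf at 0.579 CPM per kb, and the highest Itpr2, an intracellular calcium channel, at 8.69 CPM per kb. Mog, a surface protein of the outer myelin layer, reached 6.47 CPM per kb and so exceeded Mag at this age.

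**Figure D1:**
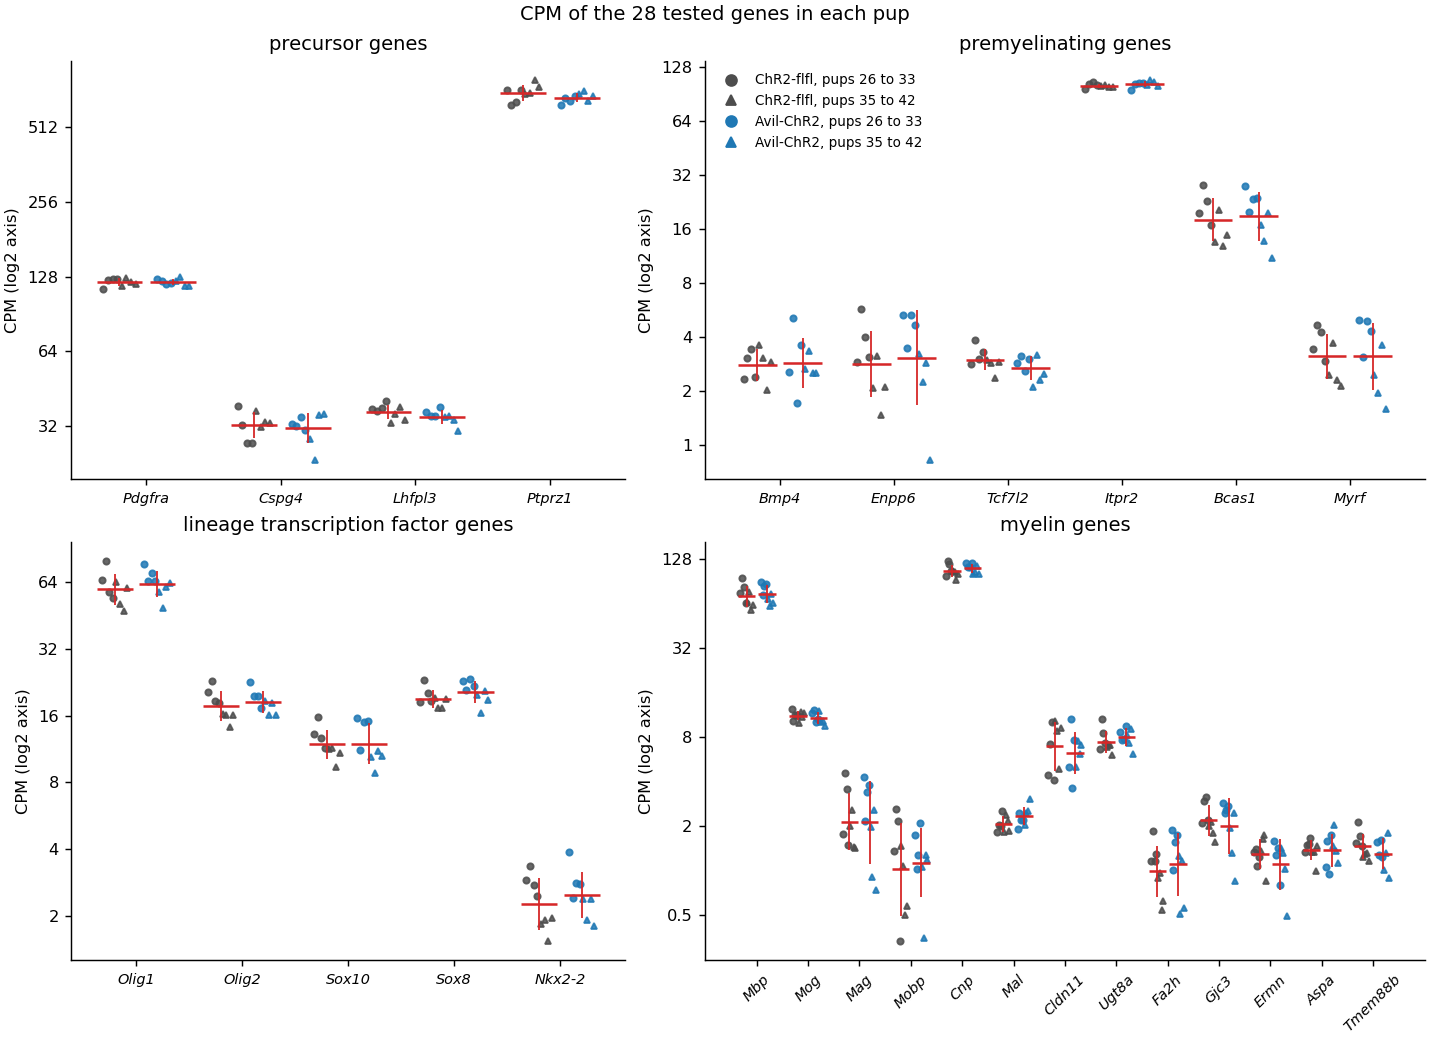
CPM of the 28 tested genes on log2 axes, 1 panel per stage, with 1 symbol per pup (grey ChR2-flfl, blue Avil-ChR2, circles for pups 26 to 33, triangles for pups 35 to 42); red lines give the mean and SD of the log2 values of each genotype. The genotypes overlap in every gene, and in Nkx2-2 all circles lie above all triangles.

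The first comparison asked whether the genes differ between Avil-ChR2 and ChR2-flfl cortex. No difference was detected for any of them. In limma with Benjamini-Hochberg adjustment over 21183 genes, 0 of the 28 members passed an adjusted p of 0.05, against 0.00944% of all genes (2 genes, of which Avil is 1). At an unadjusted p under 0.05, 0 of 28 members passed, against 5.41% of all genes, and limma voom on the recovered reads also gave 0. The values of the genotypes did not separate for any member, whereas they did for 0.0283% of all genes (6 genes). In bulk tissue, fewer cells of a type and less RNA per cell cannot be told apart.

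Among the precursor genes, Pdgfra lay at 114 CPM in the lowest, 123 CPM in the median and 126 CPM in the highest ChR2-flfl pup, and at 117, 122 and 128 CPM in Avil-ChR2. The groups overlapped almost fully, and the log2 difference (Avil-ChR2 minus ChR2-flfl) was 0.00 with a 95% interval from -0.05 to 0.06. Ptprz1 ran from 632 CPM over a median of 712 to 793 CPM in ChR2-flfl and from 631 over 676 to 718 CPM in Avil-ChR2. Its log2 difference was -0.07 (95% interval -0.15 to 0.02, adjusted p = 0.94 in limma). Lhfpl3, a tetraspan protein of precursors, had a difference of -0.07 (-0.16 to 0.03), and Cspg4, the NG2 proteoglycan that is also made by pericytes, had a difference of -0.04 (-0.22 to 0.13). The median difference of the 4 precursor genes was -0.055, beside 0.002 over all genes tested.

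All 5 transcription factors had estimates above 0, with a median of 0.087, and none passed the test. Sox10, which is needed through all stages of the lineage, was at 9.36, 11.4 and 15.8 CPM in the lowest, median and highest ChR2-flfl pup and at 8.81, 11.2 and 15.6 CPM in Avil-ChR2. Its log2 difference was 0.01 (-0.23 to 0.26). Sox8, a close relative of Sox10, had a difference of 0.10 (-0.04 to 0.25), and Nkx2-2, which promotes differentiation, had one of 0.13 (-0.22 to 0.48). Olig1 and Olig2 had differences of 0.09 (-0.11 to 0.28) and 0.06 (-0.12 to 0.24).

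Premyelinating genes had a median difference of 0.028. Bcas1, which marks oligodendrocytes as they begin to myelinate, lay between 12.9 and 28.1 CPM in ChR2-flfl (median 18.2) and between 11 and 27.6 CPM in Avil-ChR2 (median 19.7). The spread within each genotype exceeded any shift between them, and the log2 difference was 0.06 (-0.32 to 0.43). For Enpp6, a choline phosphodiesterase of newly formed oligodendrocytes, the lowest, median and highest values were 1.47, 2.98 and 5.74 CPM in ChR2-flfl and 0.823, 3.33 and 5.32 CPM in Avil-ChR2, with a difference of 0.12 (-0.56 to 0.79). Myrf differed by 0.00 (-0.48 to 0.48), Tcf7l2, a Wnt effector of newly formed oligodendrocytes, by -0.16 (-0.37 to 0.06), and Bmp4, a secreted inhibitor of differentiation, by 0.03 (-0.33 to 0.39). Itpr2 was the most precise of them, at 0.02 (-0.03 to 0.08).

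Myelin genes had a median difference of -0.0077, with 6 estimates above and 7 below 0. Mbp was at 58.3, 70.7 and 94.8 CPM in the lowest, median and highest ChR2-flfl pup and at 61.2, 73.5 and 90.2 CPM in Avil-ChR2. The ranges nearly coincide, with a log2 difference of 0.06 (SE 0.094, 95% interval -0.14 to 0.26). Mal, a lipid-raft protein of myelin, had the smallest p of the myelin genes, with 1.83 to 2.52 CPM in ChR2-flfl (median 2.02) and 1.92 to 3.03 CPM in Avil-ChR2 (median 2.31), a difference of 0.17 (-0.04 to 0.38), an unadjusted limma p of 0.11 and an exact permutation p of 0.095 (two-sided, 12870 splits). After adjustment in limma its p was 0.94.

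The other myelin genes were estimated with unequal precision. Cnp had a difference of 0.06 (-0.05 to 0.18) and Mog of -0.05 (-0.17 to 0.07). Ugt8a, which makes the galactolipids of myelin, had one of 0.10 (-0.11 to 0.32), and Fa2h one of 0.15 (-0.44 to 0.75). For Mag (-0.02, interval -0.74 to 0.70) and Mobp (0.15, -0.68 to 0.98) the interval spans changes of over 1.5-fold in both directions, so that such changes were not detectable with 8 pups per group. Gjc3, a connexin, was at -0.13 (-0.59 to 0.33), Cldn11, the claudin of myelin tight junctions, at -0.14 (-0.60 to 0.32), and Ermn, Aspa and Tmem88b at -0.24, -0.01 and -0.16.

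Further genes of the lineage, listed apart from the members, gave the same picture. Of 28 tested genes among other myelin and oligodendrocyte genes, 0 passed an unadjusted p of 0.05 in limma. The share of all genes was 5.41%, which applies to each list here. The smallest p belonged to Nfasc (-0.07), Plekhb1 (-0.07) and Hapln2 (-0.39), with limma adjusted p of 0.95 each. Of 20 other precursor and premyelinating genes, 1 passed in limma, near that share. It was Vcan, a matrix proteoglycan made by precursors among other cells, at -0.16 (SE 0.068, unadjusted p = 0.031, adjusted p = 0.88). Sox6 (-0.06) and Bcan (0.07) followed. Of 30 regulators of the lineage 0 passed, with Zeb2 (-0.09), Fgfr3 (0.08) and Igf1r (-0.09) nearest to the threshold.

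**Figure D2:**
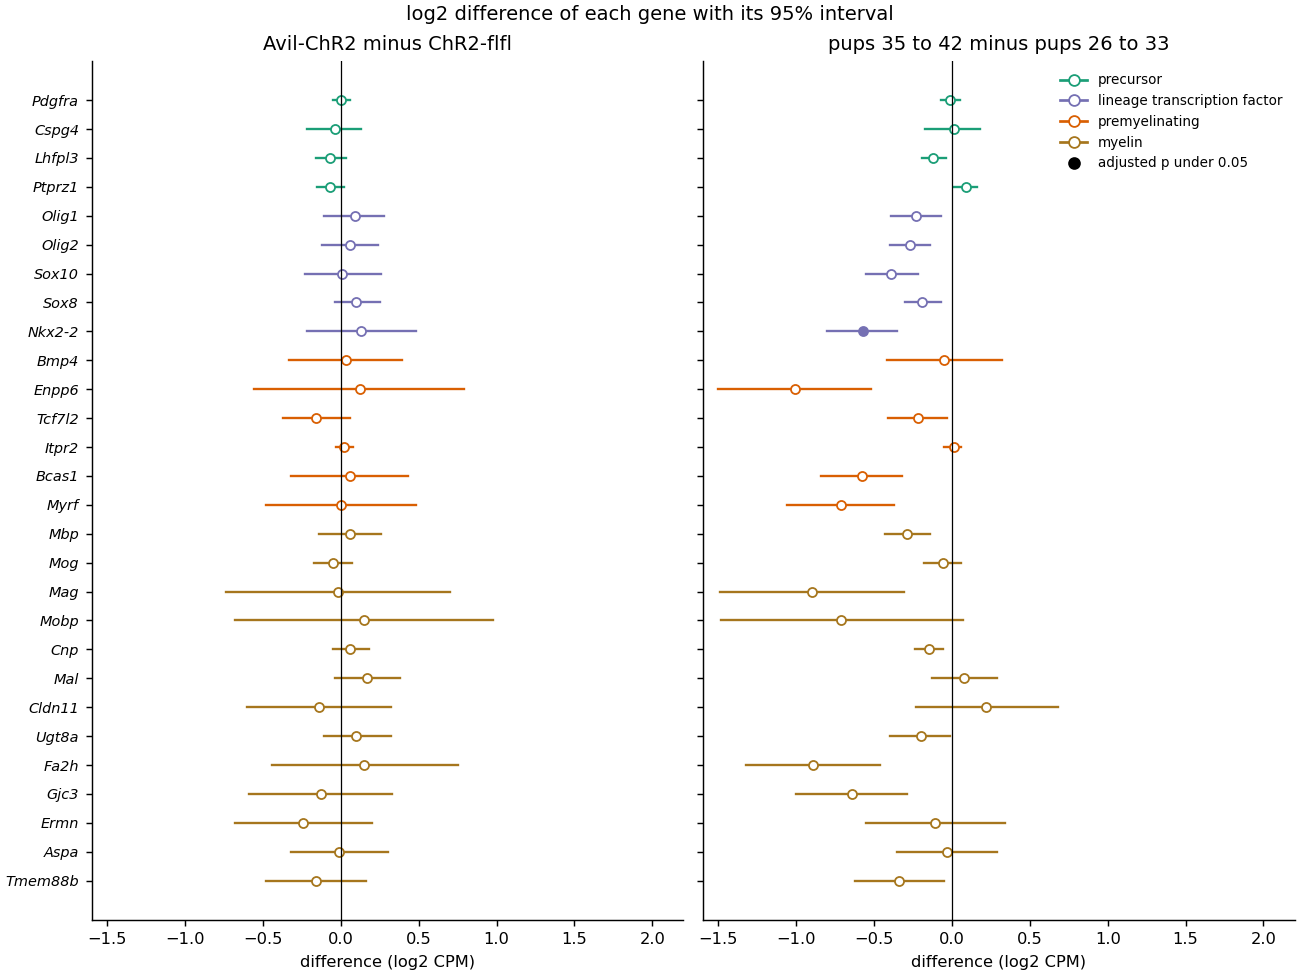
Log2 difference of each tested gene with its 95% interval from limma, coloured by stage, for Avil-ChR2 minus ChR2-flfl (left) and for pups 35 to 42 minus pups 26 to 33 (right); filled points passed an adjusted p of 0.05. All 28 intervals on the left include 0, whereas on the right Nkx2-2 is filled and most genes lie left of 0.

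The spread between pups differed from stage to stage. The SD of log2 CPM between pups, pooled within genotype, had a median of 0.25 over the 28 members, beside 0.14 over all genes tested and 0.099 over the 15137 genes with a mean log2 CPM of at least 0. The spread was small in precursor genes (median 0.09), larger in transcription factors (0.22) and largest in premyelinating (0.4) and myelin genes (0.32). The counting error of the reads, which was derived from the recovered reads, had medians of 0.027, 0.05, 0.12 and 0.15 in the same order. Low counts thus add more error in the late genes, and the pooled SD still exceeded the counting error in all 28 genes, by 1.34 times in Mal up to 10.7 times in Ptprz1.

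Steady and variable genes stood side by side within a stage. Pdgfra and Itpr2 had the smallest SD of the members (0.047 each), and the highest pup exceeded the lowest 1.12-fold and 1.14-fold. Mobp had the largest SD (0.92), with 0.334 CPM in ChR2-flfl replicate 4 and 2.59 CPM in ChR2-flfl replicate 2, a ratio of 7.76 between pups of the same genotype. Mag (SD 0.8) ran from 0.741 CPM in Avil-ChR2 replicate 8 to 4.56 CPM in ChR2-flfl replicate 2, and Enpp6 (SD 0.76) covered a 6.98-fold range. Mog, in contrast, ranged only 1.3-fold (SD 0.12). The SD was higher in Avil-ChR2 than in ChR2-flfl in 17 of 28 members and in 6 of 6 premyelinating genes, beside 8365 of 21183 genes, and this difference was not tested.

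**Figure D3:**
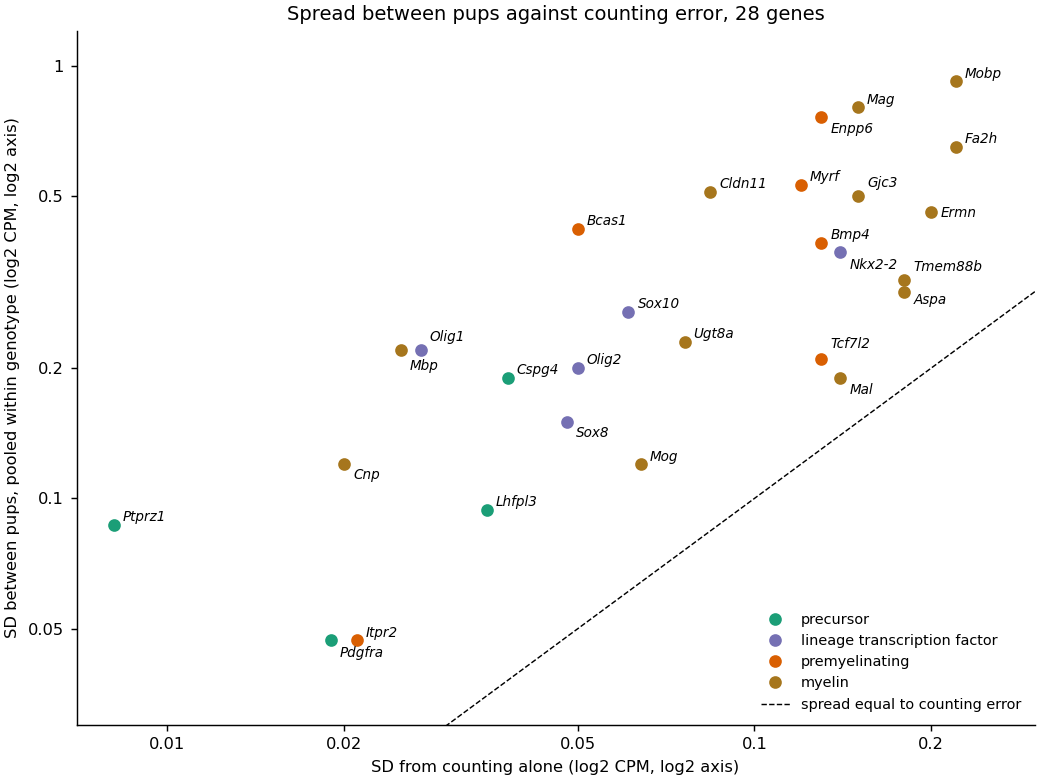
SD of log2 CPM between pups, pooled within genotype, against the SD expected from counting the reads alone, both on log2 axes, with 1 point per gene coloured by stage. All 28 points lie above the dashed line of equality, from Mal at 1.34 times to Ptprz1 at 10.7 times the counting error.

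Many of the genes moved together with Mbp from pup to pup. Log2 CPM of Bcas1 followed that of Mbp with r = 0.94 and rho = 0.95 over the 16 pups (permutation p = 1e-05, the smallest that 100000 permutations can give, adjusted p = 0.0096 over 21182 genes). After leaving out the 2 pups farthest from the median of Mbp r was 0.92. Sox10 (r = 0.92, rho = 0.90), Myrf (0.91, 0.94), Mag (0.89, 0.93), Fa2h (0.87, 0.84) and Nkx2-2 (0.87, 0.84) came next. Cnp (r = 0.84), Enpp6 (0.83), Mobp (0.82), Sox8 (0.80), Olig2 (0.78), Gjc3 (0.75), Ugt8a (0.74) and Olig1 (0.73) also had r above 0.7. Without the 2 pups, r of these 14 genes lay between 0.56 (Olig1) and 0.92 (Bcas1 and Myrf). Ugt8a and Olig1 missed the threshold over all genes (permutation, adjusted p = 0.051 and 0.054). In all, 14 of 27 members exceeded r = 0.7, beside 2.12% of all genes, and 13 of 27 passed an adjusted permutation p of 0.05, beside 2.25% of all genes.

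Other members did not, among them variable ones such as Cldn11 and Ermn. Ptprz1 ran against Mbp (r = -0.81, rho = -0.73, permutation p = 0.00013, adjusted p = 0.022), and r was -0.72 without the 2 pups. Pdgfra (r = 0.09), Mog (0.09), Itpr2 (-0.00), Bmp4 (0.07), Cldn11 (-0.05), Aspa (-0.09) and Ermn (0.13) showed no relation to Mbp that passed the test over all genes, and neither did Mal (-0.26), Cspg4 (0.14), Lhfpl3 (0.28) and Tcf7l2 (0.33). Tmem88b lay in between, with r = 0.61 (rho = 0.52, permutation p = 0.012, adjusted p = 0.14 over all genes, r = 0.52 without the 2 pups). The myelin genes were therefore split, with 6 of 12 above r = 0.7, while 5 of 5 transcription factors and 0 of 4 precursor genes were above it. Lims2, whose entry covers that of Gpr17, had r = 0.89 with Mbp (0.84 without the 2 pups), a relation added after its values were seen. Reads of Lims2 and Gpr17 cannot be told apart with certainty.

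**Figure D4:**
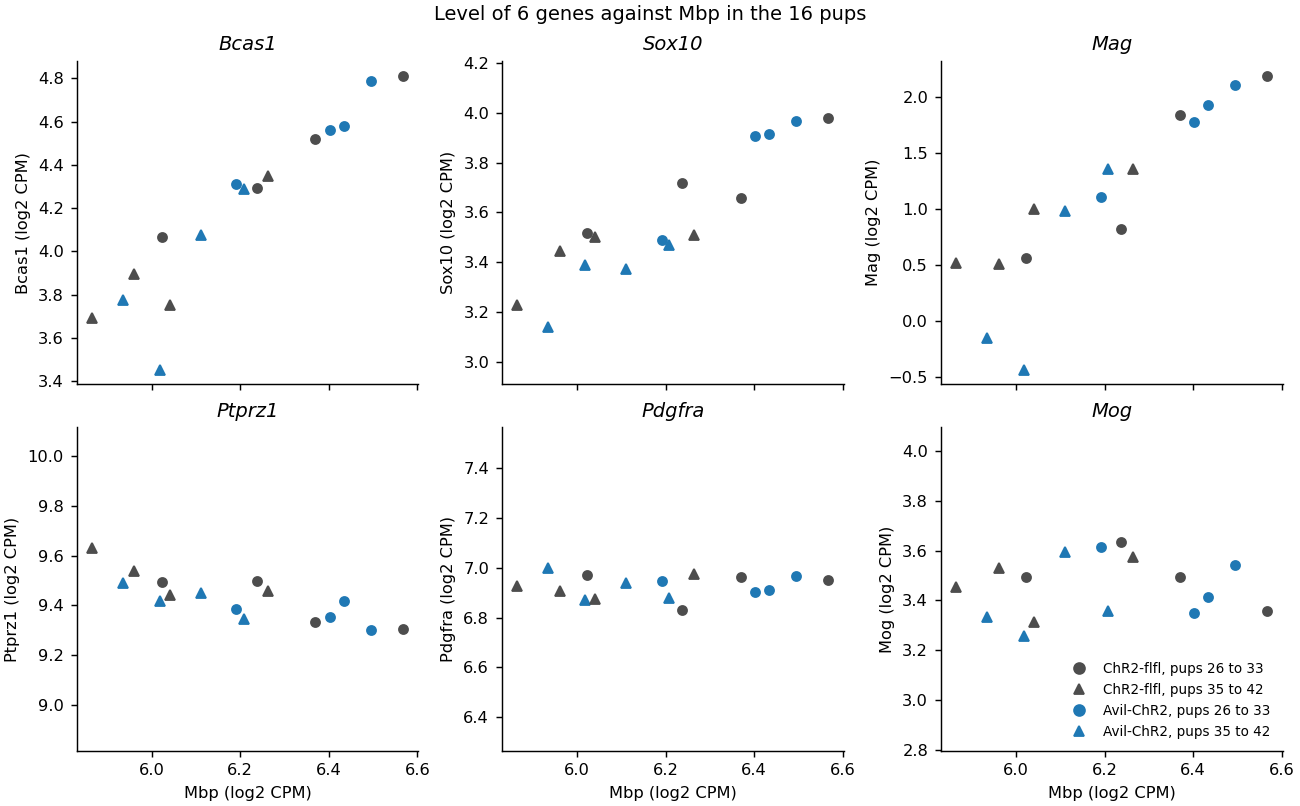
Log2 CPM of 6 genes against log2 CPM of Mbp, with 1 symbol per pup (grey ChR2-flfl, blue Avil-ChR2, circles for pups 26 to 33, triangles for pups 35 to 42). Bcas1 (r = 0.94), Sox10 (r = 0.92) and Mag (r = 0.89) rise with Mbp, Ptprz1 declines (r = -0.81), and Pdgfra and Mog (r = 0.09 each) stay level, with both genotypes mixed along each cloud.

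Of these 14 relations to Mbp, 13 passed an exact permutation p of 0.05 within ChR2-flfl (all but Olig1), 13 within Avil-ChR2 (all but Ugt8a) and 13 within pups 26 to 33 (all but Olig2), with n = 8 each. In pups 35 to 42, 4 of 14 passed (Bcas1, Myrf, Fa2h and Cnp) and 10 did not, with r between 0.26 and 0.82. The 14 genes were chosen by their r over all pups, so that a pass within a part of these pups is not independent. The share of all genes that pass within each part is not given here. For Bcas1, r with Mbp was 0.97 in ChR2-flfl and 0.93 in Avil-ChR2 (exact permutation p = 0.00027 and 0.00079, n = 8 each), and 0.99 in pups 26 to 33 and 0.80 in pups 35 to 42. Mag had 0.93 and 0.94 within genotypes and 0.96 and 0.70 within the runs (exact permutation p = 0.058 for the latter, n = 8). For Enpp6 the value in pups 26 to 33 was 0.89 and that in pups 35 to 42 was 0.57 (exact permutation p = 0.14, n = 8). With values centred within genotype and run, r was 0.88 for Bcas1, 0.87 for Mag, 0.65 for Enpp6 and 0.59 for Olig2.

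Of 11 relations fixed for one gene per stage and for other tissues, Pdgfra had r = 0.07 with Olig2, 0.34 with Enpp6 and 0.09 with Mbp, and none passed the test (permutation, adjusted p = 0.89, 0.31 and 0.89). Olig2 with Enpp6 reached r = 0.75 (rho = 0.77, permutation p = 0.00074, adjusted p = 0.002 over the 11) and Olig2 with Mbp r = 0.78 (adjusted p = 0.0013 by permutation). Without the 2 pups farthest from the median of Olig2 these were 0.65 and 0.64. Within the runs, Olig2 with Enpp6 had r = 0.44 and 0.56 and did not pass (exact permutation p = 0.27 and 0.17, n = 8 each).

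Markers of a neighbouring brain region moved with Mbp as well. The summed CPM of 8 striatal genes (8 of 8 with a value, 102 to 150 CPM over the pups) correlated with Mbp at r = 0.81 and rho = 0.87 (permutation p = 0.00014, adjusted p = 0.00077), and at 0.89 without the 2 pups. It was 0.64 after centring within genotype and run, and 0.60 and 0.66 within pups 26 to 33 and 35 to 42 (exact permutation p = 0.12 and 0.072, n = 8 each). Thalamic genes (7 of 7, 83.0 to 102 CPM) had r = -0.61 and hippocampal genes (6 of 6, 36.8 to 46.1 CPM) r = -0.56, and these were -0.39 and -0.51 without 2 pups, where neither passed the test (permutation p = 0.17 and 0.062). Astrocyte genes (r = -0.08) and choroid plexus genes (r = 0.04) showed none. The part of the dissected tissue in the shared variation of the myelin genes was not tested.

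Cldn11 and Bmp4 formed a separate pair. Cldn11 lay between 3.65 and 10.5 CPM, with r = 0.85 and rho = 0.92 to Bmp4 (permutation p = 1e-05, adjusted p = 2e-05 over 4 relations) and r = 0.85 to the summed CPM of 4 meningeal genes (4 of 4 with a value, 67.2 to 140 CPM). For Bmp4 with the meningeal genes r was 0.72. Without 2 pups these were 0.81, 0.88 and 0.58, and within pups 26 to 33 and 35 to 42 Cldn11 and Bmp4 had r = 0.93 and 0.81. Both genes are also made by cells of the meninges. These 3 relations were computed after the values were seen, and the part of meningeal tissue in them was not tested.

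The labels number the pups from 26 to 33 and from 35 to 42, and each run held 4 Avil-ChR2 and 4 ChR2-flfl pups. Whether a run stands for a litter, a day or nothing of the kind is not given in the labels. Pups 26 to 33 comprised 6 females and 2 males and pups 35 to 42 comprised 3 females and 5 males. The number of genes with a value was 23246 to 24262 (median 24039.5) in pups 26 to 33 and 23379 to 23583 (median 23457.0) in pups 35 to 42. The lowest number, 23246, belonged to ChR2-flfl replicate 3, the pup of lowest depth. Median depth was 48339485.5 and 48628994.5 reads. The part of this difference in detected genes in the run comparison was not tested. With genotype in the model, 17 of 28 members were lower in pups 35 to 42 at an unadjusted limma p under 0.05, beside 6.74% of all genes, and 1 was higher, beside 5.76%. After adjustment 1 member passed, beside 0.123% of all genes (26 genes).

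That member was Nkx2-2, at 2.41, 2.8 and 3.89 CPM in the lowest, median and highest of pups 26 to 33 and at 1.54, 1.91 and 2.38 CPM in pups 35 to 42. The runs did not overlap, which applied to 1 of 28 members and 0.142% of all genes. Its log2 difference was -0.57 (SE 0.11, limma adjusted p = 0.044) and its exact permutation p within genotypes 0.00041, the smallest that 4900 splits can give. The call was near the threshold. It was kept in 4 of 16 fits that left out 1 pup (without ChR2-flfl replicate 4 or 6, or Avil-ChR2 replicate 2 or 7) and lost in the other 12, with differences from -0.62 to -0.52 and limma adjusted p from 0.02 to 0.11. With sex as a covariate it was -0.61 (adjusted p = 0.060 in limma).

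The remaining members did not pass the adjustment with all 16 pups. In fits that left out 1 pup, Bcas1 passed in 4 of 16, as often as Nkx2-2, Sox10 in 3, Myrf and Mbp in 2 each, and Olig2 and Enpp6 in 1 each. The transcription factors Sox10 (-0.39, -0.55 to -0.22), Olig2 (-0.27, -0.40 to -0.14), Olig1 (-0.23, -0.39 to -0.07) and Sox8 (-0.19, -0.30 to -0.07) had lower estimates in pups 35 to 42, and in each of them 8 of 8 of these pups lay below the mean of the others. Among premyelinating genes, Enpp6 was at 2.89, 4.31 and 5.74 CPM in the lowest, median and highest of pups 26 to 33 and at 0.823, 2.17 and 3.21 CPM in pups 35 to 42 (-1.01, -1.50 to -0.52, limma adjusted p = 0.085). The ranges met only between 2.89 and 3.21 CPM. Bcas1 (-0.58, -0.84 to -0.32), Myrf (-0.71, -1.06 to -0.37) and Tcf7l2 (-0.22, -0.41 to -0.03) had the same sign, whereas Bmp4 (-0.05, -0.42 to 0.32) and Itpr2 (0.01, -0.05 to 0.06) had intervals that include 0.

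Mbp was at 65.0, 83.7 and 94.8 CPM in pups 26 to 33 and at 58.3, 65.4 and 76.8 CPM in pups 35 to 42 (-0.29, -0.43 to -0.14, limma adjusted p = 0.094). All 8 pups of the later numbers lay below the mean of the earlier ones, though the ranges overlapped. Mag (-0.90, -1.49 to -0.31), Fa2h (-0.89, -1.32 to -0.46), Gjc3 (-0.64, -1.0 to -0.29), Tmem88b (-0.34, -0.62 to -0.05), Ugt8a (-0.20, -0.40 to -0.01) and Cnp (-0.15, -0.24 to -0.06) were also lower at an unadjusted limma p under 0.05, and Mobp (-0.71, -1.48 to 0.07) was not. Mog (-0.06), Aspa (-0.03), Ermn (-0.11), Mal (0.08) and Cldn11 (0.22) had intervals that include 0. Of the precursor genes, Lhfpl3 was lower (-0.12) and Ptprz1 higher (0.09) at an unadjusted limma p under 0.05, and Pdgfra (-0.01) and Cspg4 (0.01) were not. Within either genotype alone, with 4 pups per run, 0 genes passed the adjustment in limma, and the members at an unadjusted p under 0.05 numbered 10 of 28 in ChR2-flfl, beside 5.13% of all genes (1086 genes), and 13 of 28 in Avil-ChR2, beside 11% (2326 genes). The striatal genes summed to 123 to 150 CPM in pups 26 to 33 and to 102 to 131 CPM in pups 35 to 42, and blood genes (2 of 3 with a value) to 150 to 265 and 131 to 171 CPM. Their part in these differences was not tested.

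The further lists were examined in the same way. Over all genes tested, 6.74% were lower and 5.76% higher in pups 35 to 42 at an unadjusted limma p under 0.05, shares that apply to each list. At that threshold, 3 of 28 other myelin and oligodendrocyte genes were lower and 1 was higher in pups 35 to 42. Of 20 other precursor and premyelinating genes 5 were lower, among them Lims2 (-0.29), and of 30 regulators 4 were lower and 3 higher, with Rxrg, a nuclear receptor of the lineage, at -0.77 (limma adjusted p = 0.09).

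Neither sex nor its combination with genotype gave a call. Between female and male pups, 0 of 28 members passed an unadjusted limma p of 0.05, beside 4.46% of all genes. Estimates were above 0 (higher in females) in 24 of 28 members, beside 51.5% of all genes, and the estimate of Mobp was 0.47 (-0.37 to 1.31). Sexes were unevenly spread over the runs, and with the run as a covariate 16 of 28 estimates were above 0 and 12 below, with Mobp at 0.23, Enpp6 at 0.00 (0.40 without the covariate) and Mag at 0.04 (0.39). For the interaction, 0 genes passed the adjustment in limma, while 6 of 28 members had an unadjusted p under 0.05, beside 4.31% of all genes. They were Cnp (-0.24), Tmem88b (-0.70), Ugt8a (-0.41), Pdgfra (-0.11), Cspg4 (0.36) and Ptprz1 (0.16), given as the genotype difference in females minus that in males, each with an adjusted p of 0.99 in limma. The set depends on the sex of 1 pup, which the study's supplement gives differently from its label. With that sex 0 genes passed the adjustment in limma, and 9 of 28 members had an unadjusted p under 0.05, beside 6.23% of all genes, without Ptprz1 and with Enpp6 (-1.32), Bcas1 (-0.79), Myrf (-0.93) and Mbp (-0.37).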

How the data were processed

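Cortices were removed at P7, and poly(A) RNA libraries were sequenced. The authors mapped the reads with SeqMan NGen to the mm10 build (GRCm38). They counted in ArrayStar and obtained CPM by TMM normalization in edgeR, which the submitters' processing notes name. The deposited table holds linear CPM with 1 column per pup, and no replicates were pooled. A gene without reads has an empty value. Each value was a whole multiple of 1 read (100% within 0.05 up to 20000 reads), which gave the reads per gene.

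Values were log2 transformed without a pseudocount, and empty or lower values were set to -5 (4432 of 338928). The filter of the study (12 of 16 pups above -5) left 21183 genes. Genotypes, runs of pup numbers, sexes and their interaction were compared with limma 3.58.1 in R 4.3.3 (trended eBayes, Benjamini-Hochberg over all genes, two-sided), with exact permutation tests of single genes and correlations with 100000 permutations. Replicates are separate animals by label. Scripts were tested on simulated data. Transcript lengths come from GENCODE M21, and promoters from RefSeq on GRCm38.p6. Depth sets counting error only.

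All 30 members, Avil and the 3 genes of smallest p in each further list were named by rule, and other names were chosen after their values were seen. Members and lists were chosen with earlier results of these data known. 1 gene of the further lists enters their counts and is otherwise not reported here. Alternatives comprised filters, a pseudocount of 1, imputation, normalizations, covariates, a replicate block and leaving out pups. 1 pup had another sex in the study's supplement than in its label, and the label was used.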

Additional observations from a re-analysis of the deposited data

Results flagged for a closer look

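In 3 of 56 groups examined (28 genes, 2 genotypes), the lowest pup stood apart from the other 7 by more than the 95% limit of Dixon's gap ratio for 8 values on the log2 scale, which chance passes in about 1 of 20 groups. Enpp6 was at 0.823 CPM in Avil-ChR2 replicate 8, and the next pup at 2.25 CPM. Mobp was at 0.348 CPM in Avil-ChR2 replicate 6, and the next pup at 1.03 CPM. Aspa was at 0.997 CPM in ChR2-flfl replicate 7, and the next pup at 1.34 CPM. Mag was lowest in the same pup as Enpp6, with 0.741 CPM in Avil-ChR2 replicate 8.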

How the results depend on the processing

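No member passed an adjusted p of 0.05 between genotypes under any alternative run. The count of all genes that passed fell from 2 to 1 with median centring, limma voom on recovered reads (added after seeing the data), a replicate block and within each run of pups, was 3 with the run of pups as a covariate, and was 1 to 2 when 1 pup was left out. Genes at an unadjusted p under 0.05 numbered 672 within pups 26 to 33, beside 1145. Members at an unadjusted p under 0.05 numbered 0 to 2 when 1 pup was left out (2 without ChR2-flfl replicate 2, 1 without ChR2-flfl replicate 3 or Avil-ChR2 replicate 6). In the same fits 929 to 1581 of all genes were under it. The replicate numbers do not pair the pups: same-numbered pups correlated at -0.344 to 0.389, and 1 of 8 correlated best with its own number. The replicate block changed no call of a member.

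Between runs of pups, 16 genes passed with sex as a covariate and 0 within ChR2-flfl or Avil-ChR2 alone, beside 26, and 7 to 123 when 1 pup was left out (123 without ChR2-flfl replicate 4, 90 without ChR2-flfl replicate 6, 66 without Avil-ChR2 replicate 2, 7 without Avil-ChR2 replicate 1). Genes at an unadjusted p under 0.05 numbered 1086 within ChR2-flfl, beside 2649, and members 10, beside 18. Precursor genes had a median difference of 0.05 within ChR2-flfl and -0.06 within Avil-ChR2, beside -0.001. The SD of myelin genes was 0.22 on the log2(value + 1) scale, beside 0.32. After centring within genotype and run, Mbp had r = -0.38 with thalamic and -0.25 with hippocampal genes, and without 2 pups -0.39 and -0.51. Pdgfra with Enpp6 reached r = 0.53 without 2 pups (permutation p = 0.049). The causes were not tested.

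The planned edgeR and DESeq2 fits were not run. With 8 pups per group, intervals for Mobp, Mag and Enpp6 stay wide, and genes with under 100 reads in a pup, such as Mobp, Fa2h and Ermn, carry the largest counting error.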
